A study of Mus musculus with 6 samples.

Results

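The acid-base genes of renal intercalated cells were followed through 9 named genes, found by symbol in a table of 57132 gene rows. They were Slc4a1, Slc26a4, Slc4a9, Foxi1, Atp6v1g3, Atp6v1b1, Atp6v0d2, Aqp6 and Rhcg, and all 9 had a row and were tested among 19927 genes. The libraries were made from glomeruli, the filtering units of the kidney, of mice labelled as having diabetic kidney disease (DKD). In the Cre_positive group (Cre+/Setdb2fl/fl DKD, n = 3) Cre recombinase was present, and in the Cre_negative group (Cre-/Setdb2fl/fl DKD, n = 3) it was absent. Both groups thus carried the floxed alleles of Setdb2, a putative histone H3 lysine 9 methyltransferase, and both had DKD. Per the design text, the comparison asks about SETDB2 of podocytes, the epithelial cells that cover glomerular capillaries. The Cre driver, the diabetes model, the strain, the age and the sex were not given in the sources used here. Nothing says that the replicates were separate mice. The p-values therefore describe the spread among these samples alone, which may be technical.

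Intercalated cells are acid- and base-secreting epithelial cells of the connecting tubule and collecting duct. Type A cells secrete protons through an apical vacuolar H+-ATPase (V-ATPase) and return bicarbonate to the blood through the basolateral anion exchanger AE1, encoded by Slc4a1. Type B cells secrete bicarbonate through the apical exchanger pendrin, encoded by Slc26a4, and carry the exchanger AE4, encoded by Slc4a9, on their basolateral side. Foxi1 encodes the forkhead transcription factor on which both types depend in mice. They lie in the tubule and are not part of the glomerulus. In such bulk samples more cells of a type and more RNA per cell cannot be told apart.

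The libraries held between 53571438 and 58807042 counts. The 8 podocyte markers examined were all detected and together stood at 688 to 782 CPM (counts relative to the library's total, scaled by TMM factors) in Cre_positive and 497 to 575 CPM in Cre_negative libraries. The 8 proximal tubule markers stood at 8512 to 9370 CPM in Cre_positive and 5629 to 6252 CPM in Cre_negative libraries, so tubule RNA was abundant in every isolate. Setdb2 had 427, 444 and 391 counts in Cre_positive and 591, 492 and 370 counts in Cre_negative libraries. Its log2 fold change of -0.12 (SE 0.18) did not pass (edgeR adjusted p = 0.738), so the gene-level counts do not check the genotype labels. Cre_positive replicate 2 stood apart in Xist, the transcript behind X chromosome inactivation, with 24 counts against 36474 or more in each other library. Results are therefore given without that library as well.

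To show the sequence next to the genes that rose by different amounts and next to the gene of the transcription factor, the 250 bases before the annotated start are printed for 3 of them, from RefSeq on GRCm38.p6, on each gene's own strand. Capitals mark a forkhead core (TGTTTAC or TATTTAC, either strand) or TATAAA on the gene's strand. The regions are chr12:31559985-31560234 (minus strand) for Slc26a4, chr6:83742767-83743016 (plus strand) for Atp6v1b1 and chr11:34208090-34208339 (minus strand) for Foxi1.
Slc26a4: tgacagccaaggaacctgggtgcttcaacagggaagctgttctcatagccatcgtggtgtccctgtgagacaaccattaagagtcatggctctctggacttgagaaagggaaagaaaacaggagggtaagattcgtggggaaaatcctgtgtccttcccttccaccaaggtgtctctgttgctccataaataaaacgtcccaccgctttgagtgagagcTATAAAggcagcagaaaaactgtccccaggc
Atp6v1b1: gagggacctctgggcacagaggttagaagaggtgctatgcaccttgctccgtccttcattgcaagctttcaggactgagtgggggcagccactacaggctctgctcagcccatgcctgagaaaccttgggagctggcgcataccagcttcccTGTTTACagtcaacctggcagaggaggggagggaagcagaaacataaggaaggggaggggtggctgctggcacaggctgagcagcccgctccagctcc
Foxi1: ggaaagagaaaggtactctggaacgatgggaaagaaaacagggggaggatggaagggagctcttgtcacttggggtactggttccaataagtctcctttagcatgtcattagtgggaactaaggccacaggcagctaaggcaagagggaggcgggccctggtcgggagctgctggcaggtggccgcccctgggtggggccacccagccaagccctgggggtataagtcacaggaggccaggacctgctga
RefSeq promoters were matched for 6 of the 9 genes, these and Atp6v1g3, Rhcg and Aqp6, and not for Slc4a1, Slc4a9 and Atp6v0d2. The forkhead letters were in 1 of the 6 promoters, that of Atp6v1b1 at position -98 from the start, and in 5.76% of all 32851 promoters in the table. TATAAA was in 1 of the 6, that of Slc26a4 at position -31, and in 7.59% of all promoters. These matches are descriptions of the printed windows.

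Slc4a1 and Slc26a4, the defining exchangers of type A and type B cells, both stood at about double their Cre_negative level in the Cre_positive libraries. Smaller rises were measured for the second type B exchanger Slc4a9 and for the V-ATPase subunits Atp6v1b1 and Atp6v1g3. Foxi1, the V-ATPase subunit Atp6v0d2, the vesicle aquaporin Aqp6 and the ammonia channel Rhcg did not pass. In all, 5 of the 9 genes were higher, none lower and 4 not called by edgeR with a threshold of 0.05 on the adjusted p. Of all genes tested 7.55% were called, 3.73% higher and 3.82% lower. At an unadjusted p under 0.05 the number was 6. The share of all genes tested at that unadjusted threshold was not counted, for the members or for the lists below. The median log2 fold change was 0.37 over the 9 genes and 0.00 over all genes tested. The groups did not overlap for 6 of the 9 genes, all higher, against 29.7% of all genes tested in either direction and 15.2% with the Cre_positive libraries higher. The count of 5 rested on all libraries: it was 2 when any Cre_positive library was left out, and 2, 1 and 4 without Cre_negative replicate 1, 2 and 3.

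Type A was represented by Slc4a1 (ENSMUSG00000006574). It had 116, 106 and 99.9 CPM in Cre_positive replicates 1, 2 and 3, against 42.9, 53.6 and 65.6 CPM in the Cre_negative ones. The lowest Cre_positive library thus lay well above the highest Cre_negative one. Slc4a1 averaged 107 ± 8.24 CPM in Cre_positive and 54.0 ± 11.4 CPM in Cre_negative libraries (SD, n = 3), which is 1.98 times as high. On the log2 scale the change was 0.99 (SE 0.15, 95% confidence interval 0.65 to 1.32, edgeR adjusted p = 0.00763). It was the one member whose call held without each of the 6 libraries, with an adjusted p of 0.0354 at most. Exact permutation of its log2 CPM (two-sided) gave a p of 0.1, the smallest that 3 against 3 samples allow, as it did for each of the other 5 members whose groups did not overlap.

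Slc4a1 also encodes band 3, the anion exchanger of red blood cells, so red cell genes are given beside it. The haemoglobin gene Hba-a1 had 110 ± 55.3 CPM in Cre_positive and 37.8 ± 22.1 CPM in Cre_negative libraries (SD, n = 3), or a log2 difference of 1.54 (SE 0.58) that did not pass (edgeR adjusted p = 0.205). It is named, as the most familiar red cell gene, after its values were seen. Of 12 red cell genes, 9 were tested, none was called higher and 1 was called lower, with a median log2 fold change of 1.36. DESeq2 called 1 higher, the haem synthesis gene Alas2. Reads of near-identical haemoglobin copies may be split between them. The red cell list summed to 259, 334 and 634 CPM in Cre_positive replicates 1, 2 and 3 and to 166, 131 and 270.5 CPM in the Cre_negative ones. Of the membrane genes of red cells, Rhag was near 0, with 34 counts over all 6 libraries, against 26857 for Slc4a1. The single call was Slc25a37, the mitochondrial iron importer, at -0.37 (SE 0.092, adjusted p = 0.0448). It did not pass when any library other than Cre_negative replicate 3 was left out (up to 0.154). The part of red cells in the Slc4a1 value was not tested.

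Type B was represented by Slc26a4 and Slc4a9. Slc26a4 (ENSMUSG00000020651), whose product pendrin exchanges chloride for bicarbonate at the apical membrane, had 136, 111 and 110.5 CPM in Cre_positive and 48.5, 56.6 and 75.0 CPM in Cre_negative libraries. The genotypes did not overlap, and Cre_negative replicate 3 lay nearest to the Cre_positive libraries. Slc26a4 averaged 119 ± 14.6 CPM in Cre_positive and 60.0 ± 13.6 CPM in Cre_negative libraries (SD, n = 3), which is 1.99 times as high. On the log2 scale the change was 0.99 (SE 0.16, 95% confidence interval 0.61 to 1.37, edgeR adjusted p = 0.0143). Its call ended without Cre_negative replicate 2, at an adjusted p of 0.0594 and a log2 fold change of 0.95.

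Slc4a9 (ENSMUSG00000024485), the basolateral exchanger of the same cells, had 224, 212 and 214 CPM in Cre_positive libraries, against 179, 184 and 182 CPM in Cre_negative ones. Both groups were tight and did not overlap. The change on the log2 scale was 0.25 (SE 0.064, 95% confidence interval 0.11 to 0.40), and the edgeR adjusted p of 0.0490 lay just inside the threshold. The call ended without any 1 of the 6 libraries, at adjusted p-values of 0.0595 to 0.174 (the highest without Cre_positive replicate 1), with log2 fold changes of 0.23 to 0.27. The interval of Slc4a9 ended below the start of those of Slc26a4 and Slc4a1.

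**Figure D1:**
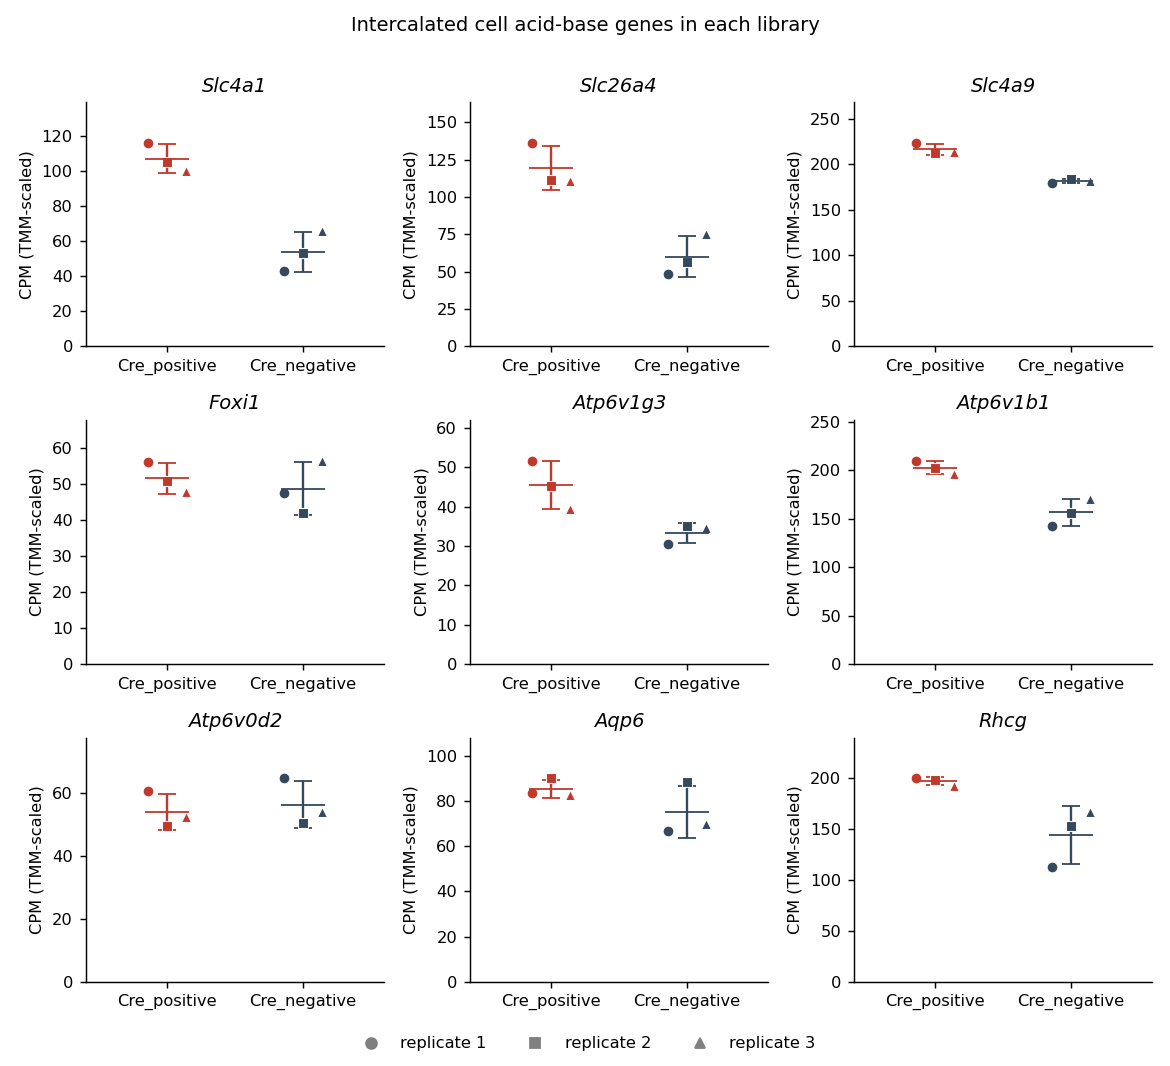
Each panel plots 1 gene, with CPM scaled by TMM factors on an axis from 0 and 1 point per library. Horizontal bars are group means and whiskers 1 SD (n = 3). For Slc4a1 and Slc26a4 the Cre_positive libraries lie at 99.9 CPM or more and the Cre_negative ones at 75.0 CPM or less, and Foxi1, Atp6v0d2 and Aqp6 overlap.

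The type A and type B exchangers moved together library by library. The log2 ratio of Slc4a1 to Slc26a4 within a library was -0.23, -0.07 and -0.14 in Cre_positive and -0.18, -0.08 and -0.19 in Cre_negative replicates 1, 2 and 3. Its means were -0.15 ± 0.078 in Cre_positive and -0.15 ± 0.062 in Cre_negative libraries (SD, n = 3), which overlapped. Ratios among the members carry no p-value here, since the genes were chosen with earlier results of these data known. By the likeness of log2 CPM centred on each gene's own mean, Slc26a4 was the nearest of 12786 genes to Slc4a1 over the 6 libraries, at a root mean square distance of 0.0576. Slc4a1 was in turn the nearest to Slc26a4. The next nearest to Slc4a1 were Prodh, a proline dehydrogenase, at 0.0815 and Insrr, an alkali-sensing receptor kinase of type B cells, at 0.0912. After Slc4a1, the nearest to Slc26a4 were the DNA dioxygenase gene Tet1 at 0.101 and Insrr at 0.109. The 3 nearest to Atp6v1b1 were Tmtc4 at 0.0293, Mgat4a at 0.0311 and Pde7a at 0.0363, with none of the other 8 genes among them.

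Against Slc4a9 the same exchangers did not keep their ratio. The log2 ratio of Slc26a4 to Slc4a9, 2 genes of 1 cell type, was -0.72, -0.94 and -0.95 in Cre_positive and -1.88, -1.70 and -1.28 in Cre_negative libraries, a difference of 0.75 between the means. Slc4a1 over the mean of Slc26a4 and Slc4a9 stood at -0.58 ± 0.040 in Cre_positive and -0.96 ± 0.15 in Cre_negative libraries (SD, n = 3). That difference of 0.38 came with Slc4a9, as the ratio of Slc4a1 to Slc26a4 differed by 0.00. A split of the exchangers by cell type therefore did not separate the values: 1 type B gene ranked with the type A gene and the other below it.

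Foxi1 (ENSMUSG00000047861) had 56.1, 50.7 and 47.8 CPM in Cre_positive libraries, against 47.4, 41.9 and 56.5 CPM in Cre_negative ones. The groups overlapped, and the highest value of all was in Cre_negative replicate 3. The log2 fold change of 0.08 (SE 0.12) did not pass (edgeR adjusted p = 0.719), and its 95% confidence interval of -0.18 to 0.35 allows between 0.884 and 1.27 times the Cre_negative level. That interval lies below those of Slc4a1 and Slc26a4. Without Cre_negative replicate 2 the log2 fold change was -0.014.

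Within a library, the exchangers stood higher against Foxi1 in the Cre_positive group. The log2 ratio of Slc4a1 to Foxi1 was 1.05, 1.06 and 1.06 in Cre_positive and -0.15, 0.35 and 0.22 in Cre_negative libraries. That of Slc26a4 to Foxi1 was 1.28, 1.13 and 1.21 in Cre_positive and 0.03, 0.43 and 0.41 in Cre_negative libraries. Neither ratio overlapped between the genotypes, and the difference between the means was 0.92 for Slc4a1 and 0.91 for Slc26a4 on the log2 scale. The ratio of Slc4a9 to Foxi1 overlapped, at 2.07 ± 0.083 in Cre_positive and 1.91 ± 0.22 in Cre_negative libraries (SD, n = 3).

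**Figure D2:**
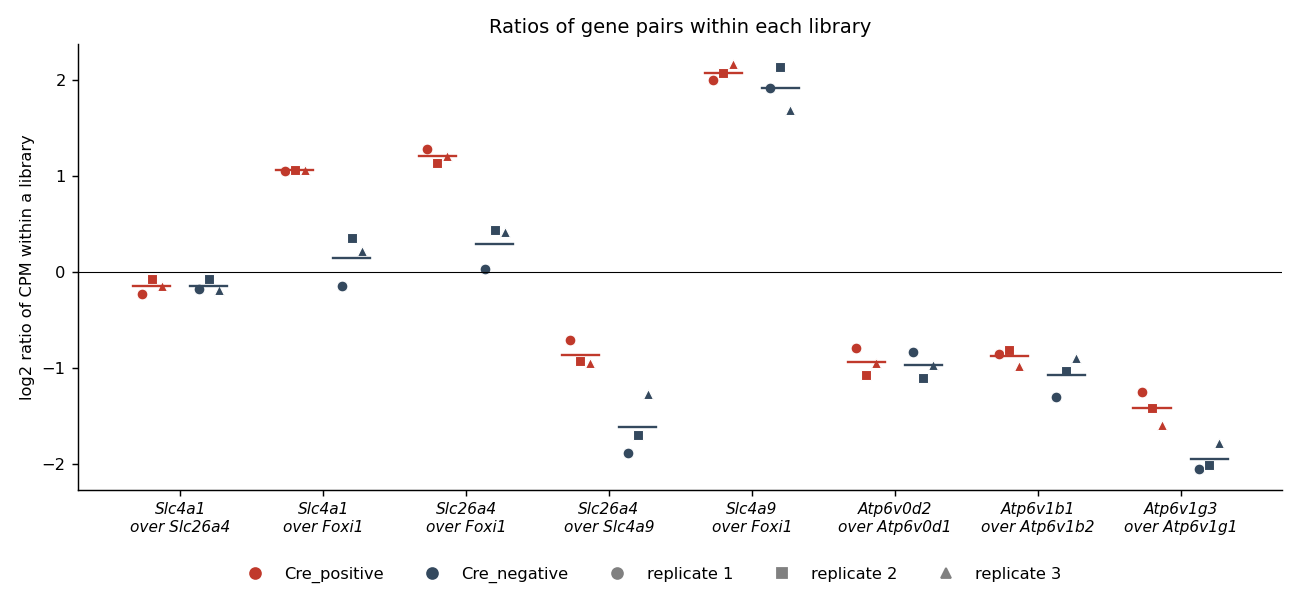
The log2 ratio of the CPM of 2 genes is plotted for each library, 1 point per library and a line at each group mean. The ratios of Slc4a1 and of Slc26a4 to Foxi1 lie above 1 in all 3 Cre_positive libraries and at 0.43 or below in the Cre_negative ones, while the ratio of Slc4a1 to Slc26a4 overlaps.

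Of the subunits of the V-ATPase, the proton pump that the cell types place at opposite membranes, 2 rose and 1 did not pass among the members. Atp6v1b1 (ENSMUSG00000006269), the kidney and inner ear form of the B subunit of the cytosolic V1 sector, had 209.7, 202 and 196 CPM in Cre_positive libraries. In the Cre_negative ones it had 143, 156 and 171 CPM, with no overlap. On the log2 scale it rose by 0.37 (SE 0.081, 95% confidence interval 0.19 to 0.56, edgeR adjusted p = 0.0275). Leaving out any library other than Cre_negative replicate 3 ended the call, at adjusted p-values up to 0.107 (without Cre_positive replicate 1).

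Atp6v1g3 (ENSMUSG00000026394), the kidney form of the G subunit in the stalk of V1, had 51.7, 45.2 and 39.5 CPM in Cre_positive libraries, against 30.4, 35.02 and 34.5 CPM in Cre_negative ones. All Cre_positive values lay above the Cre_negative ones, with Cre_positive replicate 3 the nearest. On the log2 scale it rose by 0.45 (SE 0.11, 95% confidence interval 0.20 to 0.70, edgeR adjusted p = 0.0441), and the call ended without any 1 of the 6 libraries, at adjusted p-values of 0.0535 to 0.141 (the highest without Cre_positive replicate 1).

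Atp6v0d2 (ENSMUSG00000028238), a d subunit that joins the membrane sector V0 to the stalk, had 60.6, 49.7 and 52.3 CPM in Cre_positive libraries. The Cre_negative ones had 64.9, 50.4 and 54.0 CPM. The groups overlapped almost fully. The log2 fold change of -0.06 (SE 0.11) did not pass (edgeR adjusted p = 0.809), and the 95% confidence interval allows between 0.804 and 1.15 times the Cre_negative level. Without Cre_positive replicate 2 it was 0.0013 and without Cre_negative replicate 1 it was 0.055.

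Atp6v0d2 is also expressed by macrophages and osteoclasts, so macrophage genes are given beside it. Of 13 macrophage and osteoclast-type genes, 1 was called lower and none higher, against 3.82% and 3.73% of all genes tested. With no overlap, 7 lay lower and 1 higher, against 14.5% and 15.2% of all genes tested. DESeq2 called 8 of the 13 lower. The complement gene C1qc fell to 11.9 ± 1.399 CPM in Cre_positive, against 28.2 ± 9.38 CPM in Cre_negative libraries (SD, n = 3), or a log2 difference of -1.25 (SE 0.23, edgeR adjusted p = 0.0193). Leaving out any Cre_positive library ended this call (up to 0.0893). The list summed to 1860 to 2094 CPM in Cre_positive and 3633 to 10368 CPM in Cre_negative libraries. Most of that sum was Spp1, encoding osteopontin, which tubule cells also make and which did not pass at -1.78 (SE 0.41, edgeR adjusted p = 0.0572). Without Spp1 the sum was 221 to 236 CPM in Cre_positive and 203 to 337 CPM in Cre_negative libraries, which overlapped. None of the 13 genes was at 0 in all libraries. The part of these cells in the Atp6v0d2 value was not tested.

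The whole pump was examined next. Of 25 V-ATPase genes, 24 were tested, 2 were higher, none was lower and 22 were not called. Of all genes tested 3.73% were higher and 3.82% lower. The 2 were Atp6v1b1 and Atp6v1g3. Of the 21 tested subunits outside the 9 genes, none passed in edgeR's test (DESeq2, limma voom and edgeR with a replicate block each called 1, Atp6v1c2), 3 had an unadjusted p under 0.05, and the log2 fold changes ran from -0.22 to 0.54 with a median of -0.02. The broadly expressed partners did not pass: Atp6v1b2, the other B subunit, stood at 0.18 (SE 0.078), Atp6v1g1 at -0.09 (SE 0.077) and Atp6v0d1 at -0.08 (SE 0.066). Atp6v0a4, the kidney form of the a subunit, stood at 0.08 (SE 0.081) and did not pass. Atp6v1c2, a C subunit enriched in kidney, stood at 0.54 (SE 0.15), with an edgeR adjusted p of 0.0743, but passed at 0.74 without Cre_negative replicate 3 (adjusted p = 0.00748). The log2 ratio of Atp6v1g3 to Atp6v1g1 within a library did not overlap, at -1.42 ± 0.17 in Cre_positive and -1.95 ± 0.15 in Cre_negative libraries (SD, n = 3). That of Atp6v1b1 to Atp6v1b2 overlapped, at -0.88 ± 0.085 in Cre_positive and -1.08 ± 0.21 in Cre_negative libraries.

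**Figure D3:**
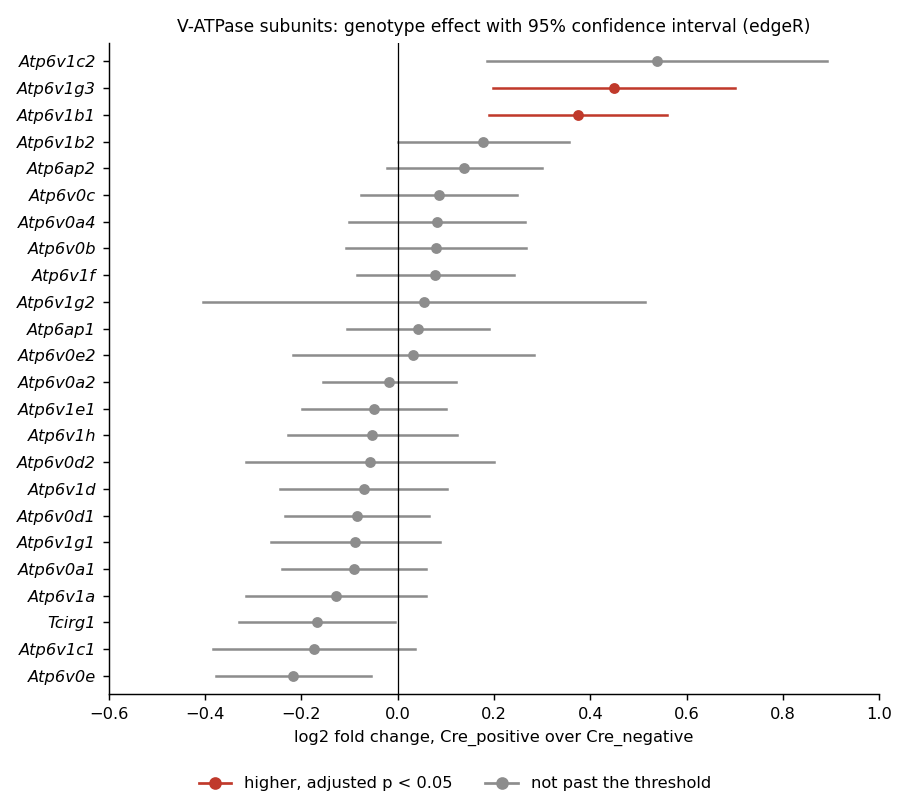
Points are log2 fold changes of the 24 tested V-ATPase subunits, Cre_positive over Cre_negative, and lines their 95% confidence intervals from edgeR. Atp6v1g3 and Atp6v1b1 are the 2 past the threshold, Atp6v1c2 lies highest at 0.54, and most broadly expressed subunits lie close to 0.

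Rhcg and Aqp6 did not pass. Rhcg (ENSMUSG00000030549), an ammonia channel of intercalated and neighbouring collecting duct cells, had 199, 198 and 192 CPM in Cre_positive libraries, against 112, 153 and 166 CPM in Cre_negative ones. There was no overlap, and the spread was in the Cre_negative group, with 196 ± 4.00 CPM in Cre_positive and 144 ± 28.0 CPM in Cre_negative libraries (SD, n = 3). Its difference of 0.45 on the log2 scale (SE 0.13, 95% confidence interval 0.15 to 0.75) had an edgeR adjusted p of 0.0772. It passed without Cre_negative replicate 3, at 0.57 and an adjusted p of 0.0304, and with DESeq2 (adjusted p = 0.0117). In the GRCm38 annotation Rhcg overlaps the gene Gm45170 on the same strand, so reads of the pair may not be told apart.

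Aqp6 (ENSMUSG00000043144), an anion-conducting aquaporin in the vesicles of type A cells, had 83.6, 90.2 and 82.9 CPM in Cre_positive libraries. The Cre_negative ones had 66.9, 88.6 and 70.1 CPM. The groups overlapped through Cre_negative replicate 2. The log2 fold change of 0.19 (SE 0.11) did not pass (edgeR adjusted p = 0.340), and its interval of -0.06 to 0.43 lay below the start of that of Slc4a1, the other type A gene among the 9.

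Without Cre_positive replicate 2, the library low in Xist, the log2 fold change was 1.00 for Slc4a1 (edgeR adjusted p = 0.0354) and 1.04 for Slc26a4 (adjusted p = 0.0467), and both still passed. Slc4a9, Atp6v1g3 and Atp6v1b1 stood at 0.27, 0.45 and 0.37 and did not pass, with edgeR adjusted p-values of 0.130, 0.126 and 0.101. Over all genes tested, the number called was 605 without that library and 1505 with all 6.

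Most members deviated the same way in 4 of the 6 libraries. In Cre_positive replicate 1, 8 of the 9 genes lay above their group's mean log2 CPM, and in Cre_positive replicate 3 none did. In Cre_negative replicate 1, 8 of 9 lay below, and in Cre_negative replicate 3, 7 of 9 lay above. The exceptions in Cre_negative replicate 1 and Cre_positive replicate 1 were Atp6v0d2 and Aqp6. The 9 genes summed to 1137, 1065 and 1034 CPM in Cre_positive replicates 1, 2 and 3 and to 735, 819 and 874 CPM in the Cre_negative ones.

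Other genes of intercalated cells were mixed in direction. Of 25 such genes outside the 9, 8 were higher, 4 were lower and 13 were not called, with a median log2 fold change of 0.17. Of all genes tested 3.73% were higher and 3.82% lower. Unlike the sum of the 9 genes, the sum of the 25 overlapped between the groups. It was 2822 to 2974 CPM in Cre_positive and 2711 to 3112 CPM in Cre_negative libraries. Without Tfcp2l1, the highest of them, it was 2412 to 2490 CPM and 2148 to 2541 CPM, which overlapped too. The 3 with the smallest p were the basolateral ammonia channel Rhbg at 0.85 (SE 0.15, edgeR adjusted p = 0.0162), the chloride channel subunit barttin, Bsnd, at 0.43 (SE 0.084, adjusted p = 0.0187), and the vasopressin receptor Avpr1a at 0.66 (SE 0.13, adjusted p = 0.0202). Rhbg did not pass when any Cre_positive library was left out (up to 0.0682), Bsnd without Cre_positive replicate 2 or 3 (up to 0.0626), and Avpr1a without Cre_positive replicate 1 or 3 or Cre_negative replicate 2 (up to 0.0891).

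The type A and type B lists include members and were chosen with earlier results of these data known. Over all genes tested 3.73% were higher and 3.82% lower. Split by cell type, 3 of 6 type A genes and 4 of 6 type B genes were higher and none was lower. In type A these were Slc4a1, the homeobox gene Hmx2 at 0.76 (SE 0.16) and the adhesion receptor Adgrf5 at 0.35 (SE 0.074), which endothelial cells express as well. Aqp6, Kit at 0.03 (SE 0.12) and Dmrt2 at 0.04 (SE 0.21) did not pass. In type B they were Slc26a4, Slc4a9, the 2-oxoglutarate receptor gene Oxgr1 at 0.47 (SE 0.097) and Insrr at 0.97 (SE 0.21). Slc4a8, a sodium-driven bicarbonate exchanger, stood at -0.05 (SE 0.098) and Spink8 at 0.17 (SE 0.22), and neither passed. None of the 4 calls outside the 9 genes held without every library: the adjusted p reached 0.103 for Hmx2, 0.0995 for Adgrf5, 0.0808 for Oxgr1 and 0.117 for Insrr, and each ended when any Cre_positive library was left out. In the Cre_negative group Hmx2 and Adgrf5 ended also without replicate 1 or 2, Oxgr1 without replicate 1 and Insrr without replicate 2.

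The 4 lower genes, named after their values were seen, were the transcription factor gene Tfcp2l1 at -0.34 (SE 0.086), the carbonic anhydrases Car2 at -0.50 (SE 0.13) and Car15 at -0.79 (SE 0.17), and the kinase gene Mapk15 at -0.40 (SE 0.083). Car2 supplies protons and bicarbonate inside intercalated cells but is also expressed by other tubule cells. It had 393 ± 20.9 CPM in Cre_positive and 555 ± 99.1 CPM in Cre_negative libraries (SD, n = 3, edgeR adjusted p = 0.0482). All 4 calls ended when any Cre_positive library was left out, at adjusted p-values up to 0.168 for Tfcp2l1, 0.161 for Car2, 0.121 for Car15 and 0.110 for Mapk15, and without Cre_negative replicate 2. Those of Tfcp2l1, Car2 and Car15 ended also without Cre_negative replicate 1.

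**Figure D4:**
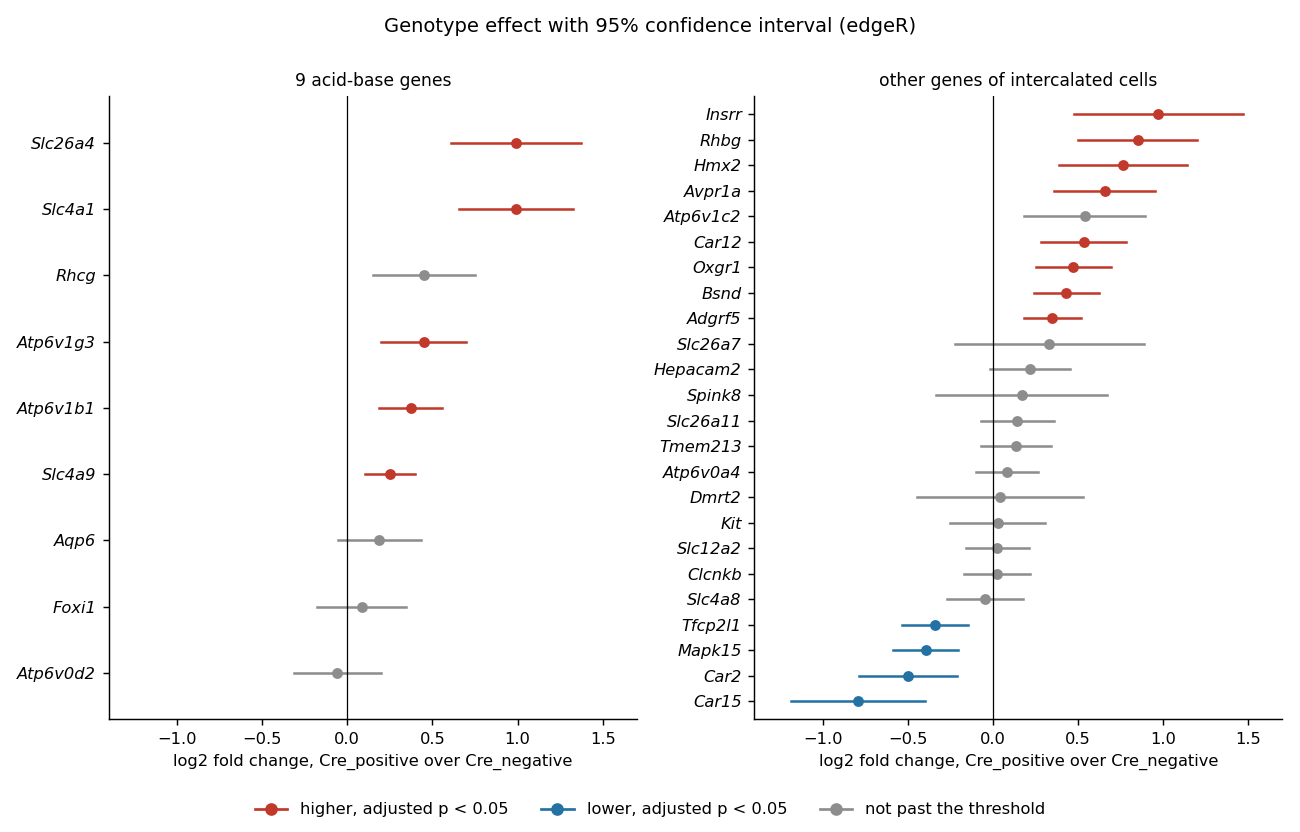
Points are log2 fold changes, Cre_positive over Cre_negative, and lines their 95% confidence intervals from edgeR, for the 9 genes on the left and 24 other genes of intercalated cells on the right. Clnk, at 0.60 (SE 1.12), is left out of the plot for its wide interval. Slc26a4 and Slc4a1 lie at 0.99, Foxi1 and Atp6v0d2 span 0, and Tfcp2l1, Mapk15, Car2 and Car15 lie below 0.

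In the acid-base machinery of the proximal tubule and the wider carbonic anhydrase family, 1 of 15 genes was higher, 3 were lower and 11 were not called. Of all genes tested 3.73% were higher and 3.82% lower. Car12, a membrane-bound carbonic anhydrase of collecting duct and other tubule cells, changed by 0.53 (SE 0.11, adjusted p = 0.0237), a call that ended when any Cre_positive library was left out (up to 0.1003).

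Among the neighbouring cells of the collecting duct, none of 12 principal cell genes passed edgeR's main test, against 7.55% of all genes tested. Of the 12, 1 had an unadjusted p under 0.05, and the median log2 fold change was 0.05. The gene with the smallest p was the basolateral water channel gene Aqp4, at -1.23 (SE 0.32, edgeR adjusted p = 0.0793). It was called lower under 4 of the 9 other settings with all libraries. These were DESeq2, limma voom, edgeR with robust=FALSE and edgeR with the replicate block. The block also called the water channel gene Aqp2 lower, which stood at -0.66 (SE 0.33) in the main test. The principal cell genes summed to 1297 to 1485.5 CPM in Cre_positive and 1310 to 1853 CPM in Cre_negative libraries. Upstream segments held genes that rose and genes that stood lower without passing. Of 9 distal convoluted and connecting tubule genes 3 were higher and of 6 thick ascending limb genes 3 were higher, with none lower in either list. Among 8 proximal tubule genes 6 were higher, and among 8 podocyte genes 2 were, again with none called lower. Of all genes tested 3.73% were higher and 3.82% lower, so lists this short may hold no lower call. The lowest of the proximal tubule list was the organic anion transporter gene Slc22a6 at -0.71 (SE 0.18, edgeR adjusted p = 0.0553), with no overlap, and 5 of the 9 other settings with all libraries called it lower. Trpv5, the calcium channel gene of the distal list, stood at -0.73 (SE 0.36) with overlap and passed without Cre_negative replicate 3. Cldn16, a tight junction gene of the thick ascending limb, stood at -0.51 (SE 0.17) with no overlap and was called lower by DESeq2. These genes, like Spp1, are named after their values were seen.

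Examples with the smallest p were Slc12a3, the thiazide-sensitive cotransporter, at 0.58 (SE 0.11), with the calcium-binding protein gene Calb1 at 0.50 and the kallikrein gene Klk1 at 0.73, Umod, encoding uromodulin, at 0.99 (SE 0.15), the growth factor gene Egf at 1.11, and the prostaglandin receptor Ptger3 at 1.06 (SE 0.069). In the proximal tubule the amino acid transporter Slc7a7 stood at 0.89 (SE 0.096), the endocytic receptor gene Lrp2 at 0.83 (SE 0.091) and the dipeptidase gene Dpep1 at 0.68. Of the 2 called podocyte genes, Synpo, encoding synaptopodin, had the larger p and stood at 0.44. Leaving out any Cre_positive library ended the calls of Slc12a3, Klk1 and Egf (edgeR adjusted p up to 0.0851, 0.124 and 0.0858). Klk1 also lost its call without Cre_negative replicate 3, Egf without Cre_negative replicate 2, Calb1 without any library but Cre_positive replicate 2 (up to 0.115), and Synpo without Cre_positive replicate 2 or 3 (up to 0.0914). Summed levels were 5709 to 5911 CPM in Cre_positive and 3548 to 4329 CPM in Cre_negative libraries for the distal convoluted and connecting tubule. For the thick ascending limb they were 9303 to 10230.4 CPM in Cre_positive and 5019 to 7011 CPM in Cre_negative libraries. Both sums, like Slc4a1 and Slc26a4, were higher in every Cre_positive library than in any Cre_negative one. In Cre_positive replicates 1, 2 and 3 the thick ascending limb sum was 9303, 9897 and 10230 CPM, and Slc4a1 had 116, 106 and 99.9 CPM. There the distal list summed to 5755, 5709 and 5911 CPM and the proximal list to 8670, 8512 and 9370 CPM. In Cre_negative replicates 1, 2 and 3 the thick ascending limb sum was 5019, 5169 and 7011 CPM, and Slc4a1 had 42.9, 53.6 and 65.6 CPM. There the distal list summed to 3548, 4329 and 4207 CPM and the proximal list to 5629, 6252 and 5819 CPM. The part of tubule content in the members' values was not tested.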

How the data were processed

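Poly(A) RNA of 6 glomerular isolates was sequenced as strand-marked read pairs, per the labels' protocols. The authors deposited whole-number read counts per Ensembl gene; GRCm39 and the tools HISAT2, fastp, StringTie and edgeR appear in the submitters' processing notes, without roles. Annotation, strand setting and multi-mapping rule were not given in the sources used here. A symbol was found for 51880 of 57132 rows.

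Counts were analysed with R 4.3.3 and edgeR 4.0.16: filterByExpr, TMM factors (0.979 to 1.03), and the quasi-likelihood test (robust=TRUE) over 19927 genes with Benjamini-Hochberg adjustment, threshold 0.05. SE is the log2 fold change over the square root of F. Log2 CPM used a prior count of 2. The fit was checked on simulated counts. Every pair of libraries differed by more than sampling noise (chi-square per degree of freedom 20.6 or more).

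The members and the 10 lists were chosen with earlier results of these data known. The naming rule took all 9 members, from each list the 3 called genes of smallest p (or 1 that did not pass), and the 3 genes nearest to Slc4a1, Slc26a4 and Atp6v1b1 in centred log2 CPM, among genes whose average log2 CPM reached 1. Alternatives were other scalings, filters and thresholds, DESeq2 1.42.0, limma 3.58.1 voom, a replicate block and each library left out. TATAAA was added after the promoters were seen. Some genes of the lists, counted in their totals, are not reported here by name. Promoters are on GRCm38.p6, another build than the counts. Overlaps of the members with other genes come from GENCODE annotation of that build, and no other coordinates are used.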

Additional observations from a re-analysis of the deposited data

How the results depend on the processing

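Of 135 values of the 9 genes under 15 other settings, 102 kept their direction and side of the threshold. Slc4a9 did not pass with RLE factors (0.25), upper quartile factors (0.25), no normalization factor (0.22), robust=FALSE (0.25), no low-count filter (0.25) or the replicate block (0.25). Atp6v1g3 did not pass with no normalization factor (0.41), limma voom (0.41), robust=FALSE (0.45) or the replicate block (0.44). Rhcg passed with DESeq2 (0.45). The causes were not tested.

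With single libraries left out, log2 fold changes ran from 0.85 to 1.15 for Slc4a1, 0.86 to 1.18 for Slc26a4, 0.23 to 0.27 for Slc4a9, -0.014 to 0.21 for Foxi1, 0.35 to 0.54 for Atp6v1g3, 0.31 to 0.44 for Atp6v1b1, -0.15 to 0.055 for Atp6v0d2, 0.11 to 0.32 for Aqp6 and 0.30 to 0.57 for Rhcg. Foxi1 turned to -0.014 without Cre_negative replicate 2, and Atp6v0d2 to 0.0013 without Cre_positive replicate 2 and 0.055 without Cre_negative replicate 1. Genes that passed nowhere and turned sign were Kit (-0.011 with no normalization factor, -0.02 and -0.10 without replicate 2 of Cre_positive and Cre_negative), Dmrt2 (-0.010 with limma voom, -0.22 without Cre_positive replicate 2) and Spink8 (-0.035 without Cre_negative replicate 3), whose leave-out values reached 0.12, 0.21 and 0.38.

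The number of members past the threshold was 5, and 6 with DESeq2, which added Rhcg. It stayed at 5 with the filter of at least 1 CPM in 3 libraries. With RLE factors, upper quartile factors, no low-count filter or limma voom it was 4. It was 3 with no normalization factor, 3 with robust=FALSE and 3 with the replicate block. At an adjusted p of 0.01 it was 1, and with single libraries left out 1 to 4. All genes called numbered 1505, but 2697 with DESeq2, 414 at 0.01, 2562 at 0.1, and 462 to 2039 with single libraries left out. The ratio of Slc4a1 to the mean of Slc26a4 and Slc4a9 moved by less than 1 SD with single libraries left out. It did so too under the other scalings and filters, the only other settings in which it was computed. A library's scaling factor nearly cancels in a ratio within that library, so the scalings could hardly move it. The sources used here do not say whether shared replicate numbers pair the samples, so pairing is unknown. Same-numbered libraries deviated together with correlations of 0.0547, 0.0551 and 0.0173 across genes. Each Cre_positive library correlated best with its own number, but for replicate 3 the next value, with Cre_negative replicate 1, was 0.0122. These correlations are small, and whether the numbers pair the samples was not tested. With the block 1541 genes were called, 5 of 9 red cell genes were called higher, and Insrr, Tfcp2l1 and Car2 did not pass. Car2 did not pass with robust=FALSE, nor Insrr with no low-count filter.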
